A study of Mus musculus with 18 samples.

Results

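Plasminogen activators turn the inactive precursor plasminogen into plasmin, a protease that cleaves fibrin, matrix proteins and growth factor precursors around the cell. Tissue-type plasminogen activator (tPA) and urokinase (uPA) are the activators, and serine protease inhibitors of the serpin family block them. Cell-surface receptors hold activators and plasminogen where plasmin is made, and endocytic receptors take up activator and inhibitor complexes. In the brain this system is known for roles in matrix remodelling, neurite outgrowth and synaptic plasticity, and astrocytes make and clear several of its members.

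The genes described here are 7 named members of this system, found by gene symbol among the 51912 genes of the count table. They are the activators *Plat* (tPA) and *Plau* (uPA), the surface receptors *Plaur* (the urokinase receptor, uPAR), *Anxa2* and *S100a10* (the subunits of the annexin A2 complex, which binds plasminogen and tPA), the inhibitor *Serpine2* (protease nexin-1, which blocks thrombin, uPA and tPA) and the clearance receptor *Lrp1*. The choice holds 1 inhibitor only, and receptors outnumber activators in it. All 7 passed the filter of 10 or more read pairs summed over 18 libraries, as did 24495 genes, with 350 (*Plaur*) to 189885 (*Lrp1*) read pairs per library.

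The cells were primary cortical astrocytes from PD 0 mice with Tg(Aldh1l1-EGFP/Rpl10a)JD130Htz, on a B6;FVB background, a transgene in which the astrocyte promoter *Aldh1l1* drives an EGFP-tagged ribosomal protein. All groups shared this genotype, and the cultures pooled cortices of both sexes, reached confluence in 14 days, were subcultured for 6 days and spent 24 h without serum. Dishes then received serum-free medium alone (control) or with 50 mM ethanol for another 24 h (6 dishes each). Ribosome-bound RNA was pulled down with antibodies to GFP (IP) from all 12 dishes, and RNA of the lysate before the pull-down (input) was sequenced from 3 control and 3 ethanol dishes, those numbered 4 to 6. The labels do not say that the dishes came from separate animals, so p-values measure the spread between dishes.

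The libraries held 74239854 to 132810705 read pairs on genes. *Aldh1l1*, the check of the pull-down, had 181 ± 9.87 CPM (read pairs scaled to library size with TMM factors) in input (SD, n = 6) and 375 ± 14.9 CPM in IP (n = 12), so its log2 fold change of IP against input was 1.05 (SE 0.0216, adjusted p = 5.45e-51). Of 8 astrocyte markers 7 were higher in IP and *S100b* was lower. The 8 microglial markers summed to 82.1 to 101 CPM in input and 23.1 to 30.4 CPM in IP, where *Cx3cr1*, *P2ry12*, *Tmem119* and *Aif1* were below 1 CPM in every library, and 7 of the 8 were lower in IP. Of 6 fibroblast and meningeal markers 4 were lower in IP, with sums of 217 to 225 CPM in input and 102 to 120.3 CPM in IP. *Pdgfra* stood both in this list and in that of the oligodendrocyte lineage. The sum of 5 mural markers moved with ethanol, mainly through *Acta2*. In input it was 1293 to 1363 CPM in control and 892 to 961 CPM with ethanol, and in IP 1621 to 1755 against 1046 to 1243 CPM. *Acta2* alone fell by 0.56 on the log2 scale in IP (SE 0.0399, adjusted p = 7.24e-08), and *Myh11* was the other of the 5 called there. In input only *Acta2* was called. *Pdgfrb* had -0.02 in both fractions (adjusted p = 0.649 in IP and 0.662 in input). *Rgs5* and *Kcnj8* were not called in either fraction, and *Kcnj8* was below 1 CPM in every library. *Acta2* itself was higher in IP than in input, by 0.43 on the log2 scale (SE 0.0332). Of the microglial markers 2 rose with ethanol in IP and 3 in input. The astrocyte markers summed to 1581 to 1649 CPM in IP control and 1690.1 to 1755 CPM in IP ethanol, with no overlap: *Aqp4* (0.25), *Slc1a3* (0.23) and *Slc1a2* (0.19) rose on the log2 scale and none fell. In input 3 astrocyte markers rose and 3 fell, among them *Aldh1l1* (-0.13, SE 0.0233, adjusted p = 9.38e-07), and the sums overlapped between control (977 to 1021 CPM) and ethanol (1019 to 1046 CPM). Of the oligodendrocyte lineage markers *Pdgfra* (0.47) and *Cspg4* (0.29) rose and *Olig1* (-0.17) fell in IP, and their sum was 228 to 242 CPM in control and 204 to 224 CPM with ethanol. Of the endothelial markers *Kdr* (-0.40) fell in IP, and *Pecam1*, *Cdh5* and *Tek* were below 1 CPM in every library. Of the neuronal markers 1 rose and 1 fell in each fraction. The part of these cell types in the changes of the members was not tested.

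The 250 bases before the RefSeq start site were read from the promoter table (GRCm38.p6), which matched 4 of the 7 members (*Plaur*, *Anxa2*, *Serpine2* and *Lrp1*). All 4 matches are shown, and they were not picked by direction. The first 2 fell and the others rose with ethanol in IP. *Plat*, *Plau* and *S100a10* had no match, and of these the last 2 also fell in IP. Each printed stretch stops at the first base that GENCODE M21 annotates as exon, which left 187 bases for *Anxa2* and 219 for *Serpine2*. The *Serpine2* stretch lies inside the gene as GENCODE annotates it, whose start (79861180) is farther upstream than the RefSeq start used here. Each sequence is written 5′ to 3′ on the strand of its gene. Capitals mark the letters TGANTCA (bound by AP-1 factors) and GGGCGG (the GC box), searched on both strands.
*Plaur*, chr7:24462233-24462482, plus strand: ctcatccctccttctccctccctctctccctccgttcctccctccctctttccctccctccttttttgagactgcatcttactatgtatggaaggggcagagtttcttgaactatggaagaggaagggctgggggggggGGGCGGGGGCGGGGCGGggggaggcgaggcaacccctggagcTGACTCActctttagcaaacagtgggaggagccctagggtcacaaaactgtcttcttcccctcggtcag
*Anxa2*, chr9:69453433-69453619, plus strand: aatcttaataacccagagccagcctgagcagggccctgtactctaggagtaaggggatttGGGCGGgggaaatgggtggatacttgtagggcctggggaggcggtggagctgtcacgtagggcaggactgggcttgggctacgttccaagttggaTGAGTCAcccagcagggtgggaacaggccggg
*Serpine2*, chr1:79858697-79858915, minus strand: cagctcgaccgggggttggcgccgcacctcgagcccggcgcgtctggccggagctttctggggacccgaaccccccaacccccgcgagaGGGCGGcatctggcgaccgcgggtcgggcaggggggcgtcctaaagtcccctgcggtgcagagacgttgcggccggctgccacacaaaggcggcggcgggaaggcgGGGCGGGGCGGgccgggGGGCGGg
*Lrp1*, chr10:127621149-127621398, minus strand: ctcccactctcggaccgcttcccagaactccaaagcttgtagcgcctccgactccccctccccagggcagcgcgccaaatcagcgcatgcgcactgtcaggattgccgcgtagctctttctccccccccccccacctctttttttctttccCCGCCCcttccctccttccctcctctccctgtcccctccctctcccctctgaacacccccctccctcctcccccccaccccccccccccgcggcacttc
TGANTCA stood once in the *Plaur* and once in the *Anxa2* window and had no match in the windows of *Serpine2* and *Lrp1*. Of all 32851 promoter windows of 250 bases, 6.75% held it. GGGCGG stood in all 4 windows (3 times for *Plaur* and *Anxa2*, 6 times for *Serpine2*, once for *Lrp1*), against 32.7% of all windows. These counts are for the full windows: the printed stretches hold 1 of the 3 for *Anxa2* and 4 of the 6 for *Serpine2*, and the others lie in the bases left out. Neighbouring matches can overlap. The third motif searched, CACGTG (the E-box), matched none of the 4 windows and 6.02% of all.

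To compare levels between genes, read pairs were scaled by transcript length (TPM). In IP, *Anxa2* had 593 ± 36.3 TPM and *Serpine2* 568 ± 25.3 TPM, followed by *S100a10* (408 ± 31.4), *Lrp1* (244 ± 18.6), *Plat* (127 ± 5.75), *Plau* (10.9 ± 1.1) and *Plaur* (8.30 ± 1.26; SD, n = 12). The order from *S100a10* to *Plat* was the same in input, with no overlap between these neighbours in any group. *Anxa2* and *Serpine2* changed places: *Anxa2* was above in IP control (617 to 641 against 526 to 565 TPM), *Serpine2* was above in input ethanol (567 to 579 against 483 to 516 TPM), and their ranges overlapped in input control and IP ethanol. *Plaur* was above *Plau* in every input library (15.3 to 18.0 against 8.66 to 11.2 TPM) and below the lowest *Plau* value of its group in every IP library. The inhibitor *Serpine2* thus had a higher TPM than *Plat*, *Plau* and *Plaur* in every library, as a measure of transcript level and not of protein.

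**Figure D1:**
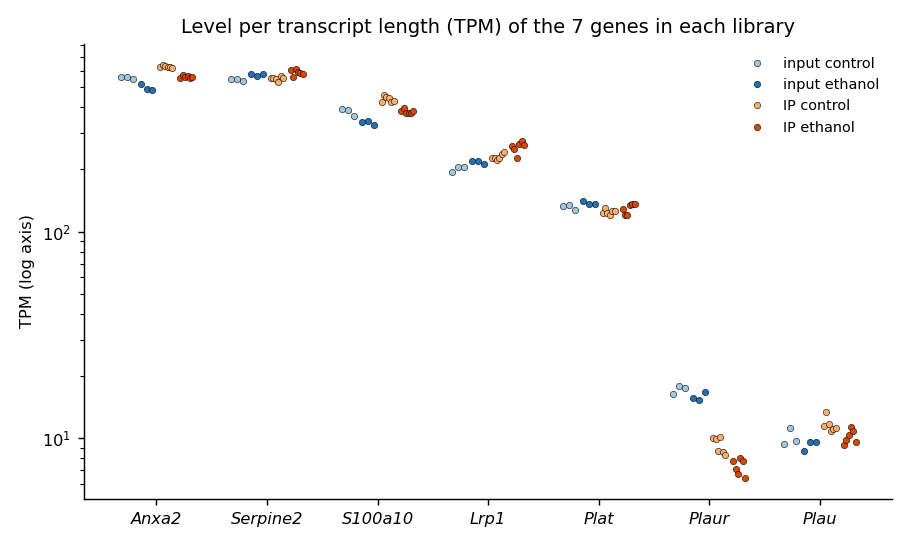
TPM (log axis) of the 7 genes in each of the 18 libraries, ordered by their mean over all libraries. Points are single libraries coloured by group; *Plaur* sits at 15.3 to 18.0 TPM in input and at 6.42 to 10.2 TPM in IP, while *Plau* stays between 8.66 and 13.4 TPM.

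The first question was which members changed with ethanol in ribosome-bound RNA. In IP 6 of the 7 members passed an adjusted p of 0.05 (edgeR's quasi-likelihood test with Benjamini-Hochberg adjustment over all genes tested). The receptors *Plaur*, *Anxa2* and *S100a10* and the activator *Plau* were downregulated, *Lrp1* and *Serpine2* were upregulated, and *Plat* did not pass. Of all genes tested 21.4% passed (11.9% higher, 9.48% lower), beside 2 members higher and 4 lower. The median log2 fold change of the members was -0.18, and that of all genes was 0.01. The log2 fold changes of the called members ran from -0.36 to 0.14, and in a test against a fold change of 1.2 no member passed (95 genes did). In whole cultures, fewer cells of a type and less RNA per cell cannot be told apart.

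*Plaur* (ENSMUSG00000046223, chromosome 7 from 24462484 to 24475968, plus strand, GRCm38) encodes uPAR, which holds uPA at the cell surface. In IP its level was 6.18 CPM in the lowest, 7.01 at the median and 7.85 in the highest control library, and 4.72, 5.52 and 5.87 CPM with ethanol. All 6 ethanol libraries were below all 6 control libraries. The mean went from 7.0 ± 0.725 to 5.42 ± 0.458 CPM (SD, n = 6), and the fitted level decreased by 22.1%, with a log2 value of -0.36 (SE 0.0631, adjusted p = 1.11e-05). This was the largest change among the 7 members in IP. The count behind it was low, 350 to 773 read pairs per IP library, and counting alone gave a coefficient of variation of 4.21% in control, against 10.4% between libraries. In input *Plaur* had 13.2, 14.1 and 14.1 CPM in the control and 12.1, 12.1 and 13.3 CPM in the ethanol libraries. There the groups overlapped, and the log2 fold change of -0.15 (SE 0.0594) did not pass (adjusted p = 0.0765), although it did without ethanol replicate 6 (-0.20, adjusted p = 0.0266).

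*Anxa2* (ENSMUSG00000032231, chromosome 9 from 69453620 to 69491795, plus strand) encodes annexin A2, the subunit of the complex that binds the membrane. In IP it ranged from 518 to 546 CPM in control (median 542) and from 450.2 to 492 CPM with ethanol (median 469). The groups did not overlap. The log2 fold change was -0.18 (SE 0.0232, adjusted p = 7.06e-09), an 11.9% decrease. In input the control libraries had 505, 494 and 502 CPM and the ethanol libraries 454, 437 and 434 CPM, again with no overlap. On the log2 scale the input change was -0.18 (SE 0.0225, adjusted p = 4.06e-14). The gene overlaps *Mir3109* and the antisense gene Gm16144, and counts of the annotated strand alone gave -0.19 in IP and -0.18 in input.

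*S100a10* (ENSMUSG00000041959, chromosome 3 from 93555080 to 93564643, plus strand) encodes p11, the S100 subunit that joins a pair of annexin A2 chains and carries the plasminogen site. Its IP libraries held 106 to 117 CPM in control (median 112) and 91.6 to 103 CPM with ethanol (median 95.7). No ethanol library reached the lowest control library. Its log2 fold change was -0.22 (SE 0.0274, adjusted p = 6.43e-09). The input libraries showed 106, 103 and 99.5 CPM in control and 88.9, 92.4 and 88.4 CPM with ethanol, and every ethanol library was below every control library. The input change amounted to -0.20 on the log2 scale (SE 0.0265, adjusted p = 4.71e-12). *S100a10* has a short transcript (685 bases). When trends of the fold changes with GC content and transcript length were removed, its log2 fold change in IP was -0.11 (adjusted p = 5.52e-05), still called.

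In the main fits both subunits therefore fell by like amounts in both fractions. With trends of GC content and length removed, the log2 fold changes in IP were -0.16 for *Anxa2* and -0.11 for *S100a10*. In input they were then -0.17 and -0.15. The log2 ratio of *S100a10* to *Anxa2* read pairs within a library was -2.26 ± 0.0336 in IP control and -2.29 ± 0.0304 in IP ethanol (SD, n = 6), and -2.28 ± 0.0471 and -2.30 ± 0.0548 in input control and ethanol (n = 3). The ranges of these ratios overlapped between control and ethanol in each fraction.

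*Plau* (ENSMUSG00000021822, chromosome 14 from 20836660 to 20843385, plus strand) encodes uPA. In IP it had 9.52 to 11.7 CPM in control (median 9.96) and 8.10 to 9.72 CPM with ethanol (median 8.93). In 5 of the 6 ethanol libraries it was below the lowest control library, and ethanol replicate 4 overlapped the controls. The fitted log2 value was -0.20 (SE 0.0522, adjusted p = 0.00289). The call was lost with IP replicates 4 to 6 alone (-0.09, adjusted p = 0.449). In input the 3 control libraries had 8.74, 10.2 and 9.10 CPM and the ethanol libraries 7.82, 8.88 and 8.83 CPM. These groups overlapped, and the log2 fold change of -0.14 (SE 0.0712) did not pass (adjusted p = 0.194). It was -0.07 without control replicate 5 and -0.08 without ethanol replicate 4.

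*Plat* (ENSMUSG00000031538, chromosome 8 from 22757727 to 22782844, plus strand) encodes tPA, the main activator of the nervous system. It had 185 to 197 CPM in IP control (median 189) and 181 to 200.0 CPM in IP ethanol (median 194), and the ethanol libraries lay on both sides of the controls. Its log2 fold change was 0.03 (SE 0.0250, adjusted p = 0.491), with a 95% interval from -0.02 to 0.08. In input the control libraries had 215, 211 and 207 CPM and the ethanol libraries 219, 215.7 and 215.6 CPM. The 3 ethanol libraries were above the controls by a small margin, by 0.04 on the log2 scale (SE 0.0231, adjusted p = 0.349, 95% interval -0.01 to 0.08). *Plat* was thus the one member that passed in neither fraction. With IP replicates 4 to 6 alone its log2 fold change was 0.08 (adjusted p = 0.0580), and without IP ethanol replicate 6 it was 0.01.

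*Serpine2* (ENSMUSG00000026249, chromosome 1 from 79794197 to 79861180, minus strand) encodes protease nexin-1, a serpin that glia secrete. In IP it ranged from 685 to 707 CPM in control (median 701) and from 712 to 772 CPM with ethanol (median 725). All ethanol libraries were above all controls, with replicates 1 and 3 the highest (762 and 772 CPM). The log2 fold change was 0.08 (SE 0.0228, adjusted p = 0.00567), an increase of 5.77%. With IP replicates 4 to 6 alone, the dishes that also gave input, it was 0.05 and did not pass (adjusted p = 0.237). In input the control libraries had 741, 725 and 731 CPM and the ethanol libraries 755, 757 and 774 CPM. The groups did not overlap, yet the log2 fold change of 0.05 (SE 0.0220) had an adjusted p of 0.0830. DESeq2 (adjusted p = 0.0282), total counts in place of TMM (0.0314) and the fit without ethanol replicate 4 (0.0438) called it.

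*Lrp1* (ENSMUSG00000040249, chromosome 10 from 127538161 to 127621148, minus strand) encodes a large endocytic receptor that internalises tPA, uPA and their complexes with serpins. Its IP libraries had 1251 to 1344 CPM in control (median 1281) and 1260.1 to 1467 CPM with ethanol (median 1435). In 5 of the 6 ethanol libraries it exceeded every control, and ethanol replicate 3 lay within the control range. The fitted increase was 0.14 on the log2 scale (SE 0.0270, adjusted p = 0.000153), or 10.1%. *Lrp1* has a long, GC-rich transcript (14888 bases, 57.9% GC), and with trends of GC content and length removed the log2 fold change was 0.05 (adjusted p = 0.0176), still called. In input it rose from 1151, 1193 and 1224 CPM to 1256, 1281 and 1237 CPM, with no overlap. The log2 fold change of 0.08 (SE 0.0216, adjusted p = 0.00399) lost its call without control replicate 4 (0.05, adjusted p = 0.166) or ethanol replicate 5 (0.07, adjusted p = 0.0515). The gene overlaps the antisense Gm16217, and counts of the annotated strand gave 0.13 in IP and 0.08 in input.

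**Figure D2:**
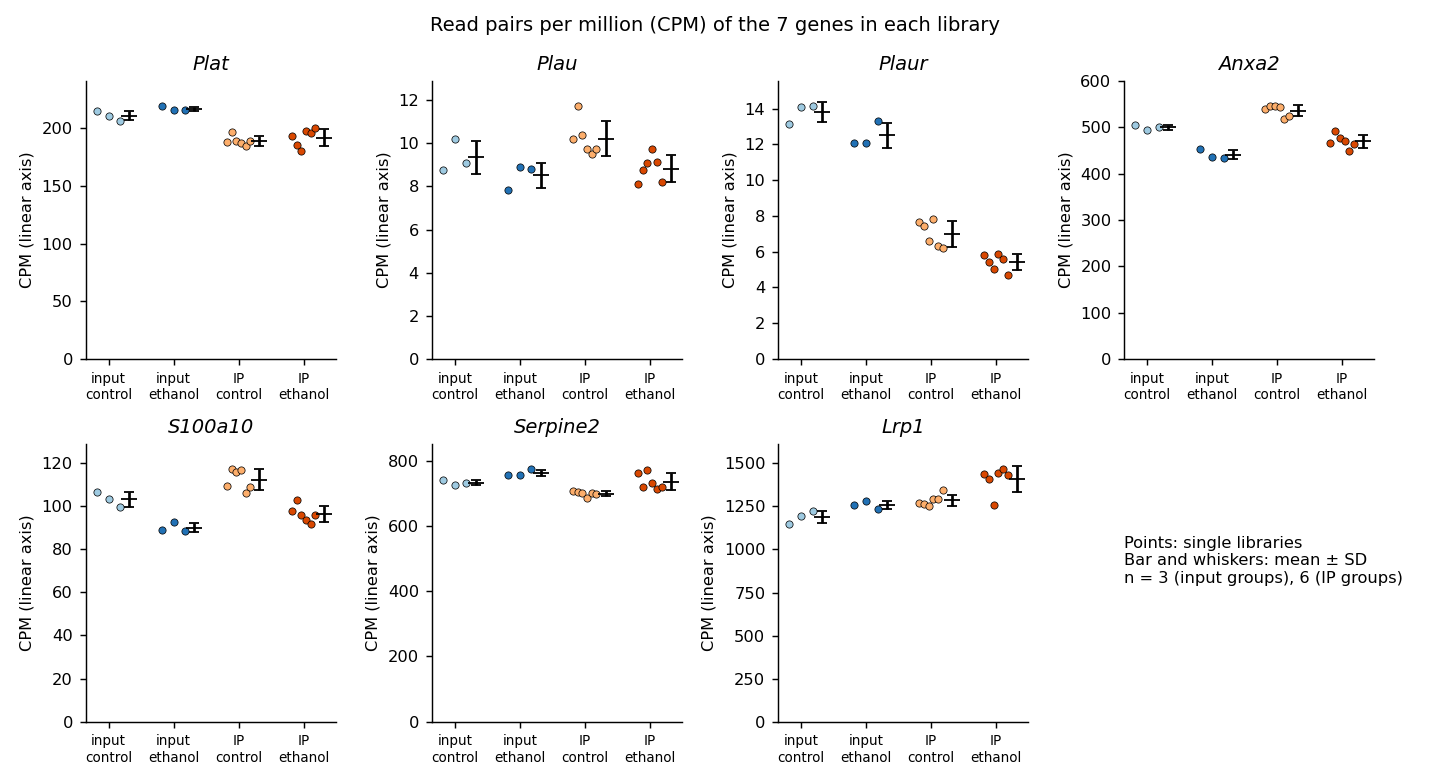
CPM of each member in the 18 libraries, on linear axes from 0, by group. Points are single libraries and bars with whiskers are the mean ± SD; in IP, *Plaur*, *Anxa2* and *S100a10* lie lower with ethanol in all 6 libraries and *Serpine2* lies higher in all 6.

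The second question was whether the input RNA showed the same changes. In input 3 members passed: *Anxa2* and *S100a10* fell and *Lrp1* rose. Of all genes 15.0% passed there (7.21% higher, 7.78% lower). The median log2 fold change of the members was -0.14, and that of all genes was -0.00092. Groups that do not overlap were common with 3 against 3 libraries: 5 members and 27.1% of all genes had none, compared with 4 members and 9.96% of all genes in IP with 6 against 6. Each member's fitted change had the same sign in both fractions, though IP and input of dishes 4 to 6 come from the same lysates and are not independent.

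**Figure D3:**
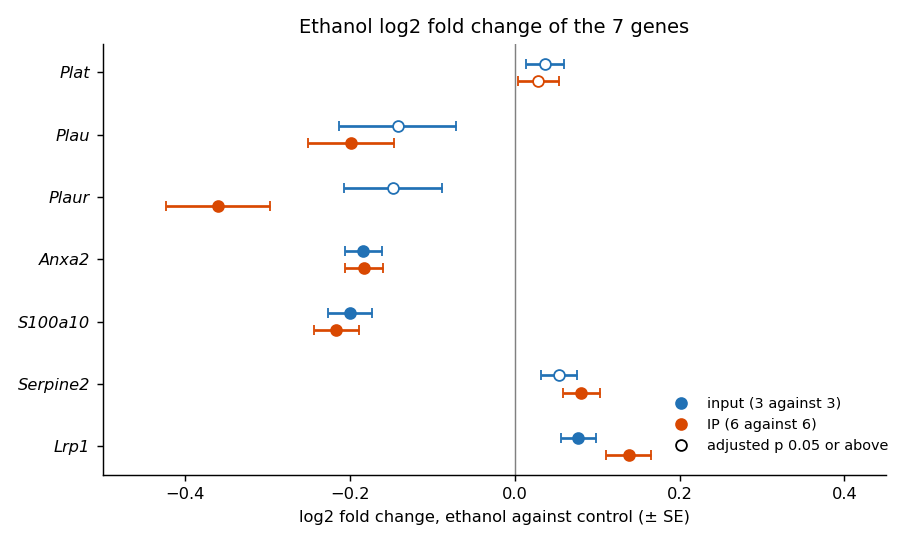
Log2 fold change of ethanol against control (± SE) for the 7 members in IP (6 against 6 libraries) and input (3 against 3). Filled points passed an adjusted p of 0.05; the pairs of *Anxa2* and *S100a10* lie at -0.18 to -0.22 in both fractions, and *Plaur* is at -0.36 in IP and -0.15 in input.

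Whether the ethanol effect differed between the fractions was tested with an interaction term on the 18 libraries. No member passed, and neither did any other gene (0% of those tested, 1459 of them at an unadjusted p under 0.05, 2 by DESeq2). *Plaur* had the largest difference, -0.22 (SE 0.0942, 95% interval -0.41 to -0.04, unadjusted p = 0.0208, adjusted p = 0.791). That fit held no term for the dish. When each dish with both fractions was a block (12 libraries), 102 genes passed and again no member did. With the block *Plaur* had -0.15 (SE 0.0969, unadjusted p = 0.112) and *Lrp1* 0.08 (SE 0.0297, unadjusted p = 0.00562, adjusted p = 0.297). Without the block the 95% intervals of the other differences were -0.08 to 0.06 for *Anxa2*, -0.12 to 0.06 for *S100a10* and -0.05 to 0.09 for *Serpine2*. They were -0.10 to 0.06 for *Plat*, -0.04 to 0.14 for *Lrp1* and -0.25 to 0.11 for *Plau*. The intervals of *Anxa2* and *S100a10* did not reach a difference as large as their own ethanol change in either fraction. Those of *Plau*, *Plaur*, *Serpine2* and *Plat* did for both fractions, and that of *Lrp1* did for its change in input only.

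The third question was how the members split between the pull-down and the lysate. The level of *Plaur* dropped by 52.9% from input to IP, and the remaining members that passed differed by -0.17 to 0.14 on the log2 scale. Of the 7 members 6 passed (3 higher, 3 lower), where 51.0% of all genes passed (25.2% higher, 25.8% lower). The median log2 fold change was 0.09 for the members and -0.03 for all genes. In a test against a fold change of 1.2, *Plaur* was the 1 member to pass.

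*Plaur* had 12.1 to 14.1 CPM in the 6 input libraries (median 13.2) and 4.72 to 7.85 CPM in the 12 IP libraries (median 6.03), with no overlap. The log2 fold change of IP against input was -1.09 (SE 0.0490, adjusted p = 1.27e-27). In the dishes with both libraries the log2 ratio of IP to input CPM was -0.74, -1.16 and -1.19 in control dishes 4, 5 and 6 and -1.04, -1.11 and -1.50 in ethanol dishes 4, 5 and 6, so it was lower in IP in 6 of 6. Of the microglial markers 7 of 8 were lower in IP as well, and of the fibroblast and meningeal markers 4 of 6. Their medians were -2.43 and -1.59, against -0.03 over all genes. The fibroblast and meningeal markers *Col1a2* (0.28) and *Pdgfra* (0.26, also in the oligodendrocyte lineage list) were higher in IP. The part of these cell types in the *Plaur* value was not tested.

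*Plat* was lower in IP too, with 181 to 200.0 CPM against 207 to 219 CPM in input and no overlap, and differed by -0.17 on the log2 scale (SE 0.0195, adjusted p = 1.55e-11). It was lower in IP in each of the 6 dishes (-0.20 to -0.11). *Serpine2* differed by -0.06 (SE 0.0179, adjusted p = 0.00358) and was lower in IP in each dish (-0.11 to -0.05), although its ranges over all libraries overlapped. *Plat* and *Plaur* were the 2 members without overlap, beside 25.0% of all genes.

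*Lrp1* was higher in IP by 0.14 (SE 0.0223, adjusted p = 9.98e-07) and in each of the 6 dishes (0.12 to 0.21). *Anxa2* was higher by 0.10 (SE 0.0185, adjusted p = 8.35e-06), also in each dish (0.04 to 0.11). *S100a10* was higher by 0.11 (SE 0.0226, adjusted p = 2.32e-05) and in 5 of 6 dishes (-0.01 to 0.13). *Plau* differed by 0.09 (SE 0.0459) without passing (adjusted p = 0.0864), and its dish ratios ran from -0.11 to 0.31. It passed without input control replicate 5 (0.12, adjusted p = 0.0408). With total counts in place of TMM the log2 fold changes were 0.09 for *Lrp1*, 0.04 for *Anxa2*, 0.06 for *S100a10*, 0.04 for *Plau* and -0.11 for *Serpine2*. Without the treatment term the calls of *Serpine2*, *Anxa2* and *S100a10* were lost.

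**Figure D4:**
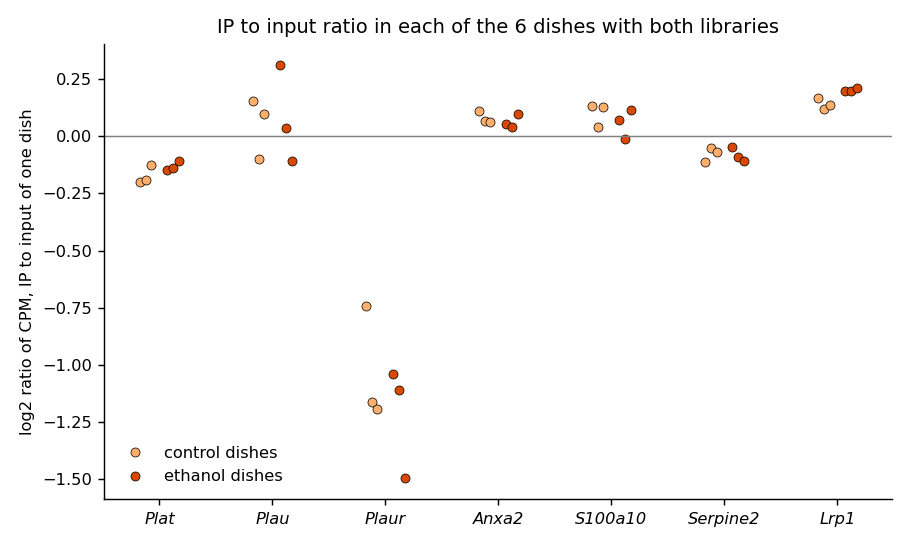
Log2 ratio of IP to input CPM for each member in the 6 dishes with both libraries, by treatment, where each point is 1 dish. *Plaur* lies between -1.50 and -0.74 in all 6 dishes, and the remaining members lie between -0.20 and 0.31.

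Ratios within a library set ligand beside receptor and activator beside inhibitor. The log2 ratio of *Plau* to *Plaur* read pairs was -0.56 ± 0.0883 in input control and -0.56 ± 0.0963 in input ethanol (SD, n = 3). In IP it was 0.55 ± 0.150 in control (0.31 to 0.66) and 0.71 ± 0.129 with ethanol (0.47 to 0.85; n = 6), and these ranges overlapped. The log2 ratio of *Plat* to *Serpine2* was -1.80 ± 0.0218 and -1.81 ± 0.0296 in input control and ethanol, and -1.89 ± 0.0301 and -1.94 ± 0.0948 in IP. It was lowest in an IP ethanol library (-2.10).

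Other genes of the system were followed in a list of 49, of which 47 could be tested. With ethanol in IP 13 were higher, 12 were lower and 22 did not pass, with a median log2 fold change of 0.04 (all genes 0.01), where 21.4% of all genes passed (11.9% higher, 9.48% lower). In input 11 were higher, 12 lower and 24 not called, with a median of 0.02, where 15.0% of all genes passed (7.21% higher, 7.78% lower). The counts of the smaller groups given next are to be read beside these shares. Plasminogen itself (*Plg*, named after its values were seen) was near the limit of detection, at a mean of 0.0280 CPM.

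Of 5 genes listed beside the annexin and S100 members, 4 fell and none rose in each fraction, the direction of *Anxa2* and *S100a10*. These 5 were picked and do not stand for the annexin and S100 families. *S100b*, an S100 gene among the astrocyte markers, was not called in either fraction (adjusted p = 0.350 in IP and 0.211 in input). *Anxa1* (annexin A1) fell from 212 ± 7.31 to 170.5 ± 4.57 CPM in IP (log2 fold change -0.31, SE 0.0248) and by 0.18 on the log2 scale in input. *S100a11*, which encodes a partner of annexin A1, fell from 416 ± 12.8 to 369 ± 16.0 CPM in IP (-0.17) and by 0.23 in input. The others were *Anxa5* and *Anxa6*, named after their values were seen. *Ahnak*, the fifth gene and of neither family, had 0.06 in IP (adjusted p = 0.0819).

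On the thrombin side 3 of 4 tested genes fell in each fraction. *F3* (tissue factor, which starts coagulation) had log2 fold changes of -0.19 in IP (SE 0.0242) and -0.15 in input. *F2rl1* (the protease-activated receptor PAR2) had -0.22 in IP (SE 0.0510) and -0.34 in input. The remaining gene that fell was *F2r* (PAR1), named after its values were seen.

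Of the 7 clearance receptors in the list 4 rose in IP. *Lrp2* (megalin) fell by 0.23 in IP (SE 0.0585, adjusted p = 0.0175) and 0.20 in input. *Mrc2*, which encodes an endocytic collagen receptor that associates with uPAR, rose by 0.19 in IP (SE 0.0543) and 0.15 in input. *Lrp1*, described above, rose, so clearance receptors were called in both directions.

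Among partners of uPAR 3 of 6 rose in IP and 4 of 6 in input, and none fell. *Itgb5* and *Itgb3* (integrin beta subunits of vitronectin receptors) had log2 fold changes of 0.22 (SE 0.0232) and 0.27 (SE 0.0961, adjusted p = 0.0385) in IP and 0.12 and 0.28 in input. Of 8 tested inhibitors 2 rose in IP and 1 in input. *Serpini1* (neuroserpin, an inhibitor of tPA in the brain) had 7.58 ± 0.375 CPM in IP control and 8.80 ± 0.342 CPM in IP ethanol, a rise of 0.22 on the log2 scale (SE 0.0507, adjusted p = 0.000677), and 0.30 in input. In the group of other proteases and substrates 4 of 14 rose and 2 fell in IP. *Pdgfd*, a growth factor that uPA can activate, rose by 0.22 in IP (SE 0.0294), and *Thbs1* (thrombospondin-1) fell by 0.31 (SE 0.0278).

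**Figure D5:**
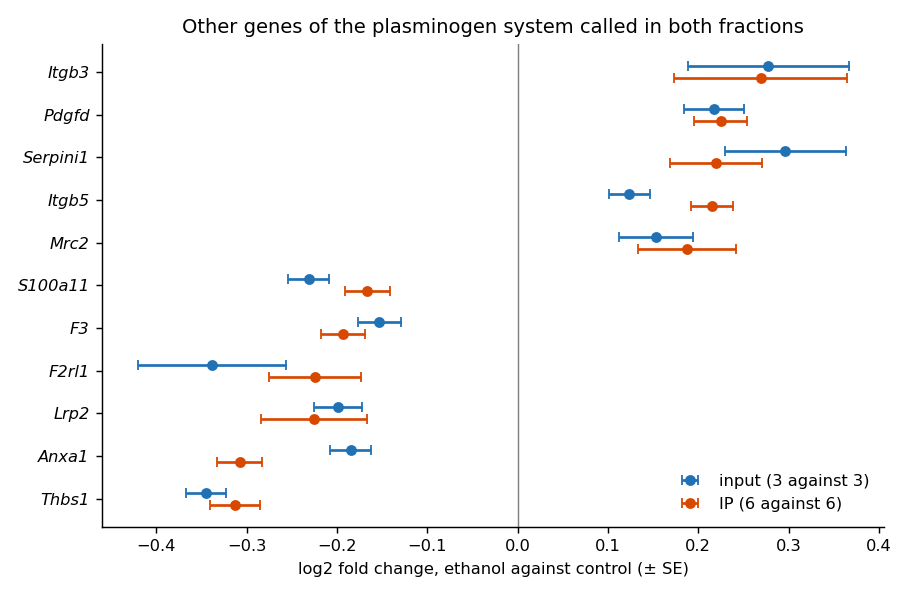
Log2 fold change of ethanol against control (± SE) in IP and input for 11 other genes of the system with an adjusted p below 0.05 in both fractions. *Thbs1* is lowest at -0.31 in IP and -0.34 in input, and *Itgb3* is highest in IP at 0.27.

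Between the fractions 22 of the 47 genes were higher in IP and 15 lower, with a median log2 fold change of 0.09, where 51.0% of all genes passed (25.2% higher, 25.8% lower). Among the genes that passed with a mean of at least 1 CPM, the highest were *A2m* (alpha-2-macroglobulin, a broad protease inhibitor) at 0.93 (SE 0.0226), *Eno1* (alpha-enolase, a glycolytic enzyme that also binds plasminogen at the cell surface) at 0.54 (SE 0.0196) and *Hgf* (hepatocyte growth factor, which uPA can activate) at 0.53 (SE 0.0908). The lowest by the same limit were *Vtn* (vitronectin, a ligand of uPAR) at -2.01 (SE 0.126), *Mmp9* (a matrix metalloprotease) at -1.56 (SE 0.0798) and *Mrc2* at -1.38 (SE 0.0377). *Vtn* had 4.21 ± 0.288 CPM in input control and 0.987 ± 0.324 CPM in IP control.

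The genes most like each member were sought by the root mean square difference of log2 CPM, each centred on its mean, over the 18 libraries and 10695 genes averaging 5 CPM or more. *Anxa2* was closest to *Clic1* (0.0236) and *S100a11* (0.0279), and *S100a10* to *Pdzd11* (0.0372) and *Anxa2* (0.0374). For *Lrp1* they were *Zfp516* (0.0278) and *Pcnx* (0.0334), for *Serpine2* *Rab5b* (0.0295) and *Grsf1* (0.0338), and for *Plat* *Usp16* (0.0317) and *Nptn* (0.0357). *Plaur* had no gene as near, with *Tinagl1* at 0.124 and *S100a6* at 0.141, and *Plau* was 0.0845 from *Rpa2* and 0.0851 from *Fam43a*. The libraries share treatment and fraction, and low counts widen the distances of *Plau* and *Plaur*.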

How the data were processed

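After trimming with Trimmomatic, the authors aligned reads with STAR (GRCm38, Ensembl annotation) and deposited its raw counts of read pairs per gene, as 1 file per library and 1 table of unstranded counts for the 18 libraries. That table equalled the single files (0 differences) and was used throughout. Read pairs mapping to several places (3.60% on average) were not counted. Their share was 4.56 to 4.77% in the input libraries and 2.95 to 3.19% in the IP libraries. The deposited counts were turned here into CPM, TPM (longest transcript, GENCODE M21) and log2 fold changes. Genes with at least 10 read pairs were tested with edgeR 4.0.16 in R 4.3.3 (TMM, robust glmQLFit, glmQLFTest), with ethanol within 12 IP and 6 input libraries, IP vs. input over 18 libraries with a treatment term, and the interaction over 18. P-values were adjusted by Benjamini-Hochberg over 24495 genes at 0.05. The SE is the absolute log2 fold change divided by the square root of F. Alternatives were DESeq2 1.42.0, other scalings, filters and strands, blocks, a trend in GC content and length, and each library left out. The fit was tested on simulated data. Input and IP of one dish share a lysate, so the dish is a true block by design. Their deviations from group means correlated at 0.05 to 0.18. For input and IP of different dishes the range was -0.06 to 0.06 in control and -0.13 to 0.09 with ethanol, so the ranges overlapped. The 7 members were found by symbol, and the genes named beside them were the pathway genes called in both ethanol comparisons (at most 12, mean of at least 1 CPM), the 3 highest and 3 lowest in IP vs. input, and the 2 genes most like each member. The members and lists were chosen with earlier results of these data known. Results of some other genes of the system are not reported here.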

Additional observations from a re-analysis of the deposited data

Results flagged for a closer look

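In the 14 groups of 6 IP libraries (7 members, control and ethanol), 1 library stood apart by Dixon's test at the 95% level, where chance gives about 1 in 20 groups. *Lrp1* in IP ethanol replicate 3 had 1260.1 CPM, and the nearest of the other 5 ethanol libraries had 1411 CPM and the highest 1467 CPM (gap over range 0.731). Its log2 fold change in IP was 0.14 with that library and 0.16 without it.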

How the results depend on the processing

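The 6 calls in IP held with each library left out, under other scalings, filters and strands, and in DESeq2. Direction and side of the threshold were kept by all but 2 of the member values under alternatives in IP, by 99 of 105 in input and by 192 of 196 in IP vs. input. The members called with a library left out numbered 6 in IP, 2 to 4 in input, 6 to 7 in IP vs. input and 0 for the difference of the ethanol effects. Tested against a fold change of 1.2, the members called were 0 in IP, 0 in input and 1 in IP vs. input (all genes 95, 55 and 4936). Without the treatment term 3 members were called in IP vs. input, where the ethanol changes then add to the spread. In the 6 IP libraries of dishes with an input library 4 members were called, with fewer samples.

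The replicate number alone links a control dish to an ethanol dish: deviations of same-numbered libraries correlated at -0.12 to 0.30 in IP and 0.05 to 0.06 in input. Control and ethanol libraries of different number correlated at -0.29 to 0.29 in IP and -0.08 to 0.02 in input. With that number as a replicate block 6 members were called in IP and 3 in input (all genes 5782 and 3829), and it changed no call of a member. With the dish as a block, 6 members were called in IP vs. input. The difference of the ethanol effects, IP minus input, turned sign without passing under the dish block (*Plat* 0.060, *Plau* 0.063, *Anxa2* 0.0036), under the dish block with GC content and length trends removed (*Plat* 0.074, *Plau* 0.094, *Lrp1* -0.014, *Anxa2* 0.018, *S100a10* 0.048), and for *Anxa2* with single libraries left out (-0.023 to 0.0037). The cause was not tested. All genes called for that difference numbered 2 with DESeq2, 102 with the dish block, 41 with the block and trends removed and 0 to 1 with a library left out. Depth limits *Plau* and *Plaur*, whose counting error is the largest.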
